A study of Homo sapiens with 24 samples.

Results

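The comparison described here sets DN-POLG cells after 9 days of doxycycline against the same cells at day 0, across all genes that the array measured. Its members are the 6 arrays titled DN-POLG day 9 and DN-POLG day 0, 3 of each, out of 24 in the series. DN-POLG cells are one HEK293 line, a human embryonic kidney line, that carries a doxycycline-inducible dominant-negative form of POLG. The day 0 cultures were not induced, and the day 9 cultures had grown in doxycycline throughout. All cultures grew in high glucose DMEM with added uridine and pyruvate. According to the methods, each day 9 culture was a pool of 4 flasks and each day 0 culture was 1 flask. No uninduced culture was kept for 9 days and no cells without the transgene were given doxycycline, so time in culture, the drug and the loss of mtDNA cannot be told apart. Day 3 and day 6 arrays of the line, and day 0 and day 9 arrays of NDI1/AOX cells, serve to estimate the spread. The NDI1/AOX cells are the same line with a nonmammalian NADH dehydrogenase and alternative oxidase added.

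POLG is the catalytic subunit of the polymerase that copies mtDNA, the small circular genome of mitochondria. mtDNA encodes core subunits of the respiratory chain and of ATP synthase, together with the rRNAs and tRNAs needed to make them. Cells that lose it cannot reoxidise NADH by respiration, and they are grown with pyruvate and uridine. They are known for a transcriptional response to amino acid stress driven by the factor ATF4. The transcripts of mtDNA and a list of ATF4 targets are used here as a check only, and the account is of the other genes. That list is not complete, so genes outside it can also be ATF4 targets.

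The array was the Affymetrix HG-U133 Plus 2.0, on which a gene is measured by one or more probe sets, each a group of short oligonucleotides. A signal below is the deposited MAS5 value of a probe set, in linear units, and levels are compared only within a probe set. A log2 fold change is day 9 minus day 0 of the mean log2 signal, given with its SE over 3 against 3 arrays in a limma fit of 18 arrays. The signals of a probe set that sees POLG were 307, 421 and 280.1 at day 0 and 2834, 4739 and 4268 at day 9, which checks the labels, with no overlap of the groups. The log2 fold change was 3.54 ± 0.53 (SE, adjusted p = 0.000733). The other POLG probe set gave 0.23 (adjusted p = 0.735). Of 17 markers of the HEK293 line, 14 were above the signal filter, and their summed signal ran from 67587 to 92429 at day 0 and from 68031 to 93880 at day 9. The marker EYA1, a developmental transcription factor, fell by 1.73 on the log2 scale. Of 24 markers of osteosarcoma, the other cell line of the series, 15 were above the filter at sums of 18605 to 33457 and 26532 to 32982, and of 10 fibroblast and blood markers 1 was. The 3′ to 5′ signal ratio of ACTB, a measure of RNA integrity, lay between 1.08 and 1.75 on the day 0 arrays and between 1.06 and 1.77 on the day 9 arrays. A two-sided exact permutation test gave p = 0.9, and 3 against 3 arrays cannot go below 0.1. One day 6 array, replicate 1, stood apart with a ratio of 8.92. It enters the comparison through the shared spread, the signal filter and the choice of brightest probe set, and it is part of the day 6 values given below. Among the arrays compared, day 0 replicate 2 had a mean correlation of log2 signals with the other day 0 arrays (0.907) below that with the day 9 arrays (0.912). Without it 1859 genes passed.

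Of 11743 genes tested, 1593 passed in at least 1 probe set at an adjusted p under 0.05, or 13.6% of the genes. Genes that fell outnumbered those that rose: 1108 genes were lower only (9.44%), 418 were higher only (3.56%), and 67 had probe sets passing in both directions (0.571%). The median log2 fold change over all genes, each taken by its brightest probe set, was 0.0076, with quartiles at -0.35 and 0.26. Passing probe sets had a median log2 fold change of 1.26 when higher and -1.24 when lower, and in 97.5% of them the 3 and 3 arrays did not overlap. Of all 22240 tested probe sets, 2245 were higher and 3106 lower without overlap. The test and the overlap rest on the same arrays, so the overlap is no further support. Of the lower probe sets 178 (12.6%) ended at a day 9 mean below the signal filter of 66.9, where the array has little range left, and of the higher ones 60 (11.2%) started from a day 0 mean below it. Among rises of at least 2 on the log2 scale 26 of 88 started below it, and among falls of that size 91 of 170 ended below it. In bulk RNA a smaller share of cells with a transcript cannot be told apart from less of it per cell. The counts rested on the arrays used. With the 6 arrays alone 400 genes passed (123 higher, 274 lower), without day 9 replicate 3 the count was 884 (212 higher, 645 lower), and without day 9 replicate 2 only 253 genes were higher. Without the day 6 array that stood apart, 2235 passed, of which 672 were higher and 1457 lower.

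**Figure D1:**
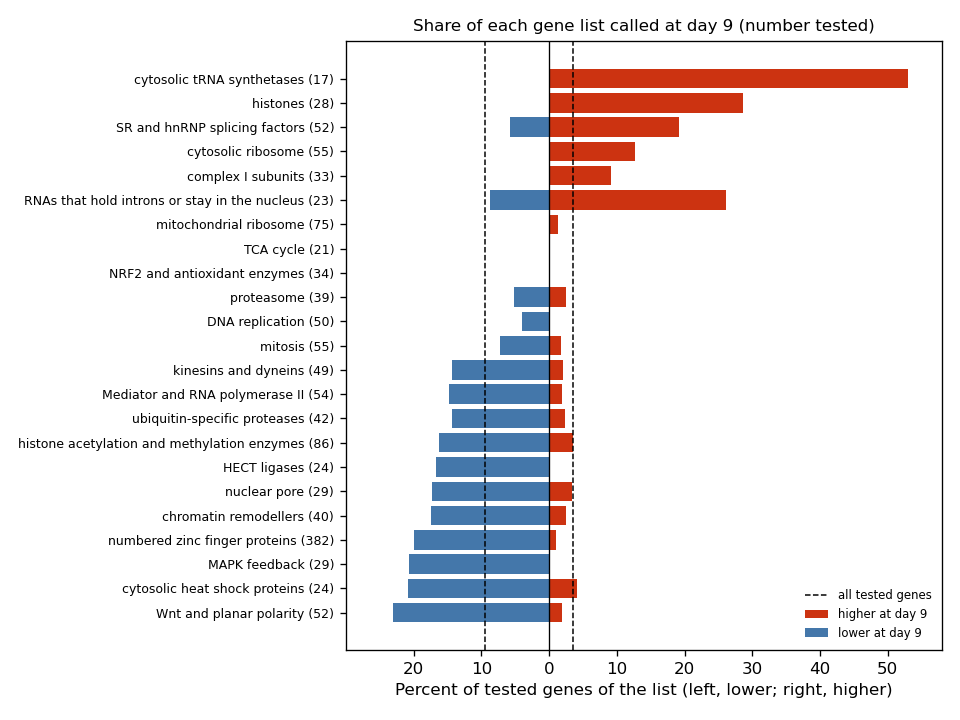
Genes of 23 functional lists that passed at day 9 against day 0, as a percent of the tested genes of each list, with higher genes to the right of 0 and lower genes to the left, and dashed lines for all 11743 genes (3.56% higher, 9.44% lower). The cytosolic tRNA synthetases (9 of 17 higher) and histones (8 of 28 higher) reach farthest to the right among these lists, and the numbered zinc finger proteins (76 of 382 lower) are on the falling side.

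Among the genes that rose, the enzymes that charge tRNAs with amino acids in the cytosol moved in 1 direction. Of 17 cytosolic aminoacyl-tRNA synthetases tested, 9 rose and 0 fell, against 3.56% higher and 9.44% lower over all genes, and their median log2 fold change was 0.48 against 0.0076. Several of these enzymes are also known targets of ATF4. The signals of SARS1, which charges serine tRNA, were 4389.6, 5212 and 4732 at day 0 and 11770.3, 9494 and 8160.4 at day 9, with no overlap, a 2.03-fold rise (log2 fold change 1.02 ± 0.22, SE, adjusted p = 0.00859). Its other probe set also rose (1.05, adjusted p = 0.0200). SARS1 no longer passed without day 0 replicate 2, day 0 replicate 3, day 9 replicate 2 or day 9 replicate 3 (adjusted p from 0.0503 to 0.0939) in that probe set. GARS1, the glycyl enzyme, rose by 0.96 and YARS1, the tyrosyl enzyme, by 0.98. GARS1 no longer passed without day 0 replicate 1 or day 9 replicate 1 (adjusted p from 0.0532 to 0.0587). YARS1 no longer passed without day 0 replicate 1, day 9 replicate 1 or day 9 replicate 3 (adjusted p from 0.0645 to 0.0764). The count of 9 synthetases dropped to 2 without day 0 replicate 1, to 2 without day 9 replicate 1, to 5 without day 9 replicate 2 and to 3 without day 9 replicate 3. With the 6 arrays alone it was 1.

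Further enzymes of amino acid metabolism, CBS and BCAT1, rose in all of their probe sets. They were not on the list of ATF4 targets, and whether their rise belongs to the ATF4 response was not tested. The signals of CBS, which joins homocysteine and serine in the transsulfuration pathway, were 1051, 762 and 714 at day 0 and 2044, 1529.8 and 1873 at day 9, with no overlap (log2 fold change 1.12 ± 0.21, SE, adjusted p = 0.00329). BCAT1, the cytosolic transaminase of branched-chain amino acids, rose in 4 of 4 probe sets, by 0.64 in the brightest (adjusted p = 0.0410). BCAT1 passed in none of the 6 fits that left out 1 of these arrays (adjusted p from 0.05001 to 0.137). MTRR, which reactivates methionine synthase, fell, with signals of 2047, 2221 and 2384 at day 0 and 1174, 999.8 and 691 at day 9 (-1.25 ± 0.23, adjusted p = 0.00307) and no overlap. Of the 15 genes of methionine metabolism 2 rose (13.3%) and 2 fell (13.3%). Of 10 genes of serine and glycine synthesis 2 rose (20%) and 0 fell, with a median of 0.45. Over all genes 3.56% were higher and 9.44% lower.

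Signals of histone transcripts rose as well, at the level of single genes of the clustered families. The RNA was labelled by 3′ in vitro transcription, and which forms of these transcripts that captures was not tested. Of 28 histone genes tested, 8 rose (28.6%) and 0 fell, with a median log2 fold change of 0.48. H2B is a core histone of the nucleosome, and replication-dependent H2B genes carry an octamer, ATTTGCAT, in their promoters that the factor OCT1 is known to bind. The promoter windows, from RefSeq on GRCh38.p14, run from 250 bases before to 50 after the gene start. The octamer stood on either strand in 623 of 35116 windows of all genes (1.77%), in 5 of the 8 histone genes that rose and in 3 of the 20 that did not. TATAAA, searched likewise, stood in 11.5% of all windows, in 5 of the 8 and in 10 of the 20. CCAAT stood in 34.6%, in 8 of the 8 and in 15 of the 20. Whether any of these motifs is tied to the rise was not tested. The 5 stretches are printed because they show the same octamer, in capitals, within the window of each gene. Each is written 5′ to 3′ on the strand of the gene, and the octamer of H2AC14 is in the reverse orientation.
H2BC21 (chr1:149886710-149886739, minus strand): tcggagccctaATTTGCATaaggtggttat
H2BC11 (chr6:27132824-27132853, minus strand): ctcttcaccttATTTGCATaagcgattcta
H2BC9 (chr6:26251554-26251583, plus strand): attaagcacctATTTGCATaaaagacctac
H2BC6 (chr6:26183642-26183671, plus strand): taagctccttcATTTGCATgcagacttcac
H2AC14 (chr6:27814963-27814992, minus strand): taaatgttattATGCAAATtaggagtagaa
The octamer begins 46, 47, 49, 108 and 204 bases before the start in this order. It is a match of letters and not a measured site, and H2BC12, which did not pass, holds it 49 bases before its start (chr6:27146886-27146915, minus strand):
H2BC12: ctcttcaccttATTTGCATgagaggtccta

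The signals of H2BC21 were 316, 381 and 588 at day 0 and 2554, 2459 and 6929 at day 9, with no overlap, an 8.51-fold rise (log2 fold change 3.09 ± 0.45, SE, adjusted p = 0.000575). Those of H2BC11 were 51.2, 25.99 and 49.5 at day 0 and 213, 238 and 325 at day 9 (2.65 ± 0.46, adjusted p = 0.00193). Both genes are among the largest rises of genes with 1 probe set, which were picked only where the groups did not overlap. The day 0 mean of H2BC11 (42.3) was under the filter of 66.9, so the size of its rise is uncertain. H2BC9 had signals of 511, 526 and 536 at day 0 and 1220.4, 1366 and 1482 at day 9 (1.37 ± 0.23, adjusted p = 0.00159). These genes are near-identical copies, and most of their probe sets are of the classes that can match several family members, so the gene a probe set is named for is uncertain. Without probe sets of those classes 2 histone genes rose, and without day 9 replicate 3 the number was 4.

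Among genes with 1 probe set, picked only where the groups did not overlap, the largest rises included RNAs of low signal at day 0. The probe set that the platform annotation assigns to the small nucleolar RNA SNORA72 had signals of 77.5, 37.4 and 54.4 at day 0 and 336, 603 and 869.8 at day 9, with no overlap (log2 fold change 3.38 ± 0.38, SE, adjusted p = 0.000131). Small nucleolar RNAs guide the modification of rRNA. Of 6 tested genes annotated as such, 2 passed as higher, against 3.56% of all genes. Whether their probe sets detect the small RNA itself or a longer transcript that holds it was not tested. SNORA78 was the other (3.33). S100P, a calcium-binding protein, passed at 2.84, and BST2, a membrane protein that tethers viruses to the cell surface, at 2.67. The day 0 means of SNORA72 (56.4), SNORA78 (64.9), S100P (28.8) and BST2 (40.9) were all under the signal filter of 66.9, so these probe sets entered the test through groups where they were higher, and the size of each rise is set by values near background. SNORA78 no longer passed without day 0 replicate 1, day 0 replicate 3, day 9 replicate 1, day 9 replicate 2 or day 9 replicate 3 (adjusted p from 0.0681 to 0.156). S100P no longer passed without day 0 replicate 2, day 9 replicate 1 or day 9 replicate 2 (adjusted p from 0.0651 to 0.0763). BST2 no longer passed without day 0 replicate 2, day 0 replicate 3, day 9 replicate 2 or day 9 replicate 3 (adjusted p from 0.0569 to 0.0755). NBPF20, of a family of near-identical copies, rose in both of its probe sets, with brightest signals of 642, 654 and 425 at day 0 and 1836, 1763 and 3077 at day 9 (1.93 ± 0.32, adjusted p = 0.00142). RHOB, a small GTPase of the actin cytoskeleton, rose in both of its probe sets, by 1.94 in the brighter. RHOB no longer passed without day 0 replicate 3, day 9 replicate 1, day 9 replicate 2 or day 9 replicate 3 (adjusted p from 0.0719 to 0.130).

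A few regulators of growth and signalling rose against the falling majority. The signals of EIF4EBP1, which binds the cap-binding factor eIF4E and holds back translation, were 4641, 6303 and 4142 at day 0 and 14335, 10923 and 10257 at day 9, with no overlap (log2 fold change 1.24 ± 0.26, SE, adjusted p = 0.00638). ID3, an inhibitor of helix-loop-helix factors, had signals of 1579, 1929 and 2256 at day 0 and 5956, 4273 and 5125 at day 9 (1.42 ± 0.28, adjusted p = 0.00496). SMAD7, the inhibitory SMAD of TGF-beta signalling, had 553, 491 and 633 at day 0 and 971, 897 and 1104 at day 9 (0.83 ± 0.17, adjusted p = 0.00708). All 3 genes had day 9 arrays above each day 0 array. EIF4EBP1 was not on the list of ATF4 targets, and whether its rise belongs to the ATF4 response was not tested. Of 39 genes of TGF-beta signalling 4 rose (10.3%) and 3 fell (7.69%), although the median log2 fold change was -0.24. Of 44 genes of PI3K and mTOR signalling 4 rose (9.09%), 6 fell (13.6%) and 1 passed in both directions. Over all genes 3.56% were higher and 9.44% lower.

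Among the genes that fell, DNA-binding zinc finger proteins were the most numerous list. Most numbered zinc finger genes encode repressors of the KRAB type, known for silencing transposable elements. Of 382 tested, 76 fell (19.9%), 4 rose (1.05%) and 302 did not pass, against 9.44% lower and 3.56% higher over all genes. Their median log2 fold change was -0.34, and 280 of 382 were below 0. The signals of ZNF180 were 341, 197 and 504 at day 0 and 74.9, 73.3 and 54.4 at day 9, with no overlap (log2 fold change -2.27 ± 0.30, SE, adjusted p = 0.000299). ZNF225 had 305, 413 and 408 at day 0 and 89.6, 136 and 109.9 at day 9 (-1.75 ± 0.25, adjusted p = 0.000464). ZNF292 fell in all of its probe sets, with brightest signals of 1204, 730.0 and 593 at day 0 and 288, 195 and 316 at day 9 (-1.63 ± 0.29, adjusted p = 0.00232). Against this direction, ZNF449 rose in all of its probe sets, with brightest signals of 866, 1021 and 506 at day 0 and 1498, 1884 and 2106 at day 9 (1.24 ± 0.25, adjusted p = 0.00589). The number that fell was 45 without day 9 replicate 3 and 17 with the 6 arrays alone, and 98 without the day 6 array that stood apart. Of 37 ZBTB factors, which pair zinc fingers with a BTB domain, 6 fell (16.2%), 2 rose (5.41%) and 1 passed in both directions. The number of them that fell was 2 without day 0 replicate 3 or day 9 replicate 3.

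Enzymes that write, read or remove chromatin marks fell in part. Of 86 genes of histone acetylation and methylation, 14 fell, 3 rose, 2 passed in both directions and 67 did not pass. Lower genes were 16.3% against 9.44% over all genes, higher genes 3.49% against 3.56%, and with the 6 arrays alone 4 fell. The signals of KAT6A, a histone acetyltransferase, were 2361, 1947 and 2441 at day 0 and 525, 530.2 and 449.9 at day 9, with no overlap (log2 fold change -2.16 ± 0.20, SE, adjusted p = 3.3e-05). The other 2 KAT6A probe sets gave -0.66 and -0.46 and did not pass. KDM2A, a demethylase of lysine on histone H3, had 1287, 1148 and 1458 at day 0 and 404, 642 and 457 at day 9 (-1.40 ± 0.21, adjusted p = 0.000870). PRDM4, a zinc finger factor with a PR domain, had 1169, 1387 and 1220.5 at day 0 and 644, 393 and 447 at day 9 (-1.38 ± 0.19, adjusted p = 0.000438). HDAC4, a class IIa deacetylase, fell by 2.92 on the log2 scale, to a day 9 mean (34.5) under the signal filter. HDAC4 no longer passed without day 0 replicate 3 or day 9 replicate 2 (adjusted p from 0.0703 to 0.0843).

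Of 40 chromatin remodellers 7 fell (17.5%, against 9.44% of all genes) and 1 rose. The number that fell was 4 without day 0 replicate 1 and 4 without day 9 replicate 1. ARID1A, the DNA-binding subunit of the BAF complex, had signals of 1399, 3063 and 2377 at day 0 and 883, 722 and 605 at day 9 (log2 fold change -1.57 ± 0.31, SE, adjusted p = 0.00441). CHD9, a helicase of the CHD family, had 1541, 965 and 1288 at day 0 and 538, 531 and 473 at day 9 (-1.28 ± 0.20, adjusted p = 0.00116). Both genes had day 9 arrays below each day 0 array. Of 15 genes of DNA methylation 3 fell (20%) and 2 rose (13.3%), against 9.44% lower and 3.56% higher over all genes. With so few genes these shares rest on single members. TET2, which oxidises methylcytosine, had signals of 319.9, 194 and 457 at day 0 and 56.6, 121 and 60.2 at day 9 (-2.03 ± 0.37, adjusted p = 0.00259), and TDG, the glycosylase that removes the oxidised base, had 5980.1, 4733 and 7185 at day 0 and 2830.4, 3455 and 2754 at day 9 (-0.97 ± 0.20, adjusted p = 0.00636).

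The machinery of transcription by RNA polymerase II fell in some subunits. Of 54 genes of Mediator and RNA polymerase II, 8 fell, 1 rose and 1 passed in both directions, with 44 not passing. The share that fell was 14.8% against 9.44% of all genes, and the number was 5 without day 9 replicate 3 and 2 with the 6 arrays alone. MED17, of the Mediator head, had brightest signals of 915, 965 and 1938 at day 0 and 365, 401 and 447 at day 9 (log2 fold change -1.57 ± 0.33, SE, adjusted p = 0.00768). MED18, of the same module, fell in both of its probe sets, with brightest signals of 345, 555 and 503 at day 0 and 185, 246 and 113 at day 9 (-1.41 ± 0.28, adjusted p = 0.00455). MED13, of the kinase module, had 4868, 5112 and 4341 at day 0 and 2276, 2359 and 2308 at day 9 (-1.04 ± 0.16, adjusted p = 0.000980). None of the 3 subunits had overlapping groups. INTS5, a subunit of the Integrator complex that ends nascent transcripts, had 648, 541 and 913 at day 0 and 157, 130.0 and 102 at day 9 (-2.42 ± 0.29, adjusted p = 0.000157), and NCOA5, a coregulator of nuclear receptors, had 246, 233 and 586 at day 0 and 30.7, 69.5 and 61.8 at day 9 (-2.66 ± 0.42, adjusted p = 0.00112). All of the probe sets of INTS5 and NCOA5 fell, and those of NCOA5 ended at means under the signal filter.

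Wnt signalling and planar cell polarity included VANGL1, the gene with the largest mean fall among those whose probe sets all passed. Wnt ligands act through Frizzled receptors either on beta-catenin or, with VANGL proteins, on the orientation of cells in a sheet. Of 52 genes tested, 12 fell (23.1%, against 9.44% of all genes), 1 rose and 39 did not pass, with a median log2 fold change of -0.27. VANGL1, a core polarity protein, fell in 3 of 3 probe sets. Its brightest had signals of 706, 1180.3 and 653 at day 0 and 262, 287 and 229 at day 9 (log2 fold change -1.66 ± 0.22, SE, adjusted p = 0.000304), and the others gave -3.08 and -4.80, both ending under the signal filter. None of the 3 overlapped. ZNRF3, a ubiquitin ligase that removes Frizzled from the membrane, had 374, 464 and 659 at day 0 and 106, 103 and 90.7 at day 9 (-2.28 ± 0.36, adjusted p = 0.00105). LGR4, the R-spondin receptor that holds back ZNRF3, fell by 1.48 on the log2 scale. LGR4 no longer passed without day 0 replicate 1, day 0 replicate 3 or day 9 replicate 1 (adjusted p from 0.0501 to 0.0542). GSK3B, the kinase that marks beta-catenin for destruction, was named from the list of PI3K and mTOR signalling and is not counted among the 12. It had 654, 778 and 1101 at day 0 and 254, 259 and 242 at day 9 (-1.71 ± 0.20, adjusted p = 0.000144). The count of 12 was 4 without day 0 replicate 3, and 6 without day 9 replicate 1 or without day 9 replicate 3, and 7 without day 9 replicate 2. With the 6 arrays alone it was 2.

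Some genes of the early response to growth factors and some feedback inhibitors of the MAPK cascade passed. EGR1, a zinc finger factor induced within minutes of stimulation, fell in 2 of 3 probe sets. The signals of the brightest were 7056, 927 and 3480.3 at day 0 and 221, 198 and 148 at day 9, with no overlap but a wide spread at day 0 (log2 fold change -3.93 ± 0.83, SE, adjusted p = 0.00739). EGR3 had 307, 82.6 and 185 at day 0 and 48.8, 52.2 and 23.2 at day 9 (-2.10 ± 0.43, adjusted p = 0.00575). JUNB, a subunit of AP-1, rose by 1.48. JUNB no longer passed without day 9 replicate 3 (adjusted p = 0.0564). Of 25 immediate early genes 3 fell (12%, near the 9.44% of all genes) and 2 rose, with a median of 0.16. Of these genes 0 rose without day 9 replicate 3, and 4 rose without day 0 replicate 1 or without day 0 replicate 2. Of 29 genes of MAPK feedback 6 fell and 0 rose, a share of 20.7% against 9.44%, though their median log2 fold change was 0.13. The 6 became 2 without day 0 replicate 1, and 3 without day 0 replicate 2 (with 3 that rose) or without day 9 replicate 3. SPRED2, which holds RAS signalling back, had 978, 1023 and 694 at day 0 and 364, 364 and 256 at day 9 (-1.45 ± 0.27, adjusted p = 0.00286).

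Scaffolds and kinases of the NDR pathway, which shapes cell outgrowth, were found by size of change and not as a list. STK38, the kinase NDR1, fell in both of its probe sets, with brightest signals of 849.9, 1311 and 1334 at day 0 and 451, 359 and 341 at day 9 (log2 fold change -1.58 ± 0.21, SE, adjusted p = 0.000294). FRYL, a scaffold of the Furry family, fell in 3 of 3 probe sets, by 1.19 in the brightest. FRYL no longer passed without day 0 replicate 1, day 0 replicate 3, day 9 replicate 1 or day 9 replicate 3 (adjusted p from 0.0519 to 0.0703). Its relative FRY rose in both of its probe sets, with brightest signals of 86.4, 71.8 and 101 at day 0 and 256, 200.4 and 217 at day 9 (1.38 ± 0.25, adjusted p = 0.00241). The 2 relatives thus passed in opposite directions. Among the other genes that fell in every probe set, FLRT3, a membrane protein that binds FGF receptors and latrophilins, had 306, 359 and 356 at day 0 and 89.7, 32.5 and 50.5 at day 9 (-2.69 ± 0.31, adjusted p = 0.000144), and HIVEP2, a zinc finger factor that binds kappaB-like enhancers, had 458, 624 and 437 at day 0 and 145, 163 and 82.8 at day 9 (-1.9996 ± 0.23, adjusted p = 0.000144). Both FLRT3 probe sets ended at means under the signal filter.

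The largest falls of genes with 1 probe set, picked only where the groups did not overlap, included membrane proteins. Those of KCNC1, ITGB8, FAM181B, PPP1R10 (day 9 mean 22.9) and PARS2 (34.7) all ended at means under the signal filter. The size of each fall is thus set by values near background. The signals of KCNC1, a voltage-gated potassium channel, were 231, 119.5 and 319 at day 0 and 2.60, 57.2 and 3.87 at day 9, with no overlap (log2 fold change -4.63 ± 0.77, SE, adjusted p = 0.00152). ITGB8, the beta 8 integrin that activates TGF-beta, had 609, 155 and 749 at day 0 and 42.8, 62.6 and 50.1 at day 9 (-3.01 ± 0.60, adjusted p = 0.00482), and FAM181B had 162, 127 and 124 at day 0 and 11.7, 59.1 and 10.8 at day 9 (-2.80 ± 0.48, adjusted p = 0.00176). PPP1R10, a nuclear targeting subunit of protein phosphatase 1, fell by 3.88 on the log2 scale and PARS2, the mitochondrial prolyl-tRNA synthetase, by 3.09. PPP1R10 no longer passed without day 0 replicate 1, day 0 replicate 3 or day 9 replicate 3 (adjusted p from 0.0540 to 0.108). PARS2 no longer passed without day 0 replicate 3 or day 9 replicate 2 (adjusted p from 0.0558 to 0.110).

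Lists of protein folding, ubiquitin enzymes and molecular motors held a few falling genes, set here against 9.44% lower over all genes. Of 24 cytosolic heat shock proteins 5 fell (20.8%) and 1 rose, with 1 that fell without day 9 replicate 3 and 3 without day 9 replicate 2. HSPA2, a member of the HSP70 family, had signals of 387, 271 and 253 at day 0 and 57.99, 142 and 90.5 at day 9, with no overlap (log2 fold change -1.72 ± 0.30, SE, adjusted p = 0.00219). Of 32 genes of endoplasmic reticulum stress 3 fell (9.38%, near the 9.44% of all genes) and 2 rose (6.25%, against 3.56%). Among those that fell EDEM3, which trims glycans of misfolded proteins in the endoplasmic reticulum, had 711, 787 and 930.0 at day 0 and 277, 275 and 193 at day 9 (-1.72 ± 0.21, adjusted p = 0.000179). Of 24 HECT ubiquitin ligases 4 fell (16.7%) and 1 passed in both directions, with 2 that fell without day 9 replicate 1. Of 42 ubiquitin-specific proteases 6 fell (14.3%) and 1 rose. USP37, a protease of the cell cycle, had 554, 588 and 740.0 at day 0 and 232, 319 and 240.3 at day 9 (-1.25 ± 0.21, adjusted p = 0.00159). Of 49 kinesins and dyneins 7 fell (14.3%) and 1 rose, with 4 that fell without day 0 replicate 1, day 9 replicate 2 or day 9 replicate 3. Of 29 nuclear pore genes 5 fell (17.2%) and 1 rose, with 2 that fell without day 9 replicate 3 and 3 without day 0 replicate 3 or day 9 replicate 1. NUP62, a channel nucleoporin, had 2109.8, 3005 and 1954 at day 0 and 1321, 1218 and 906 at day 9 (-1.03 ± 0.22, adjusted p = 0.00679).

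**Figure D2:**
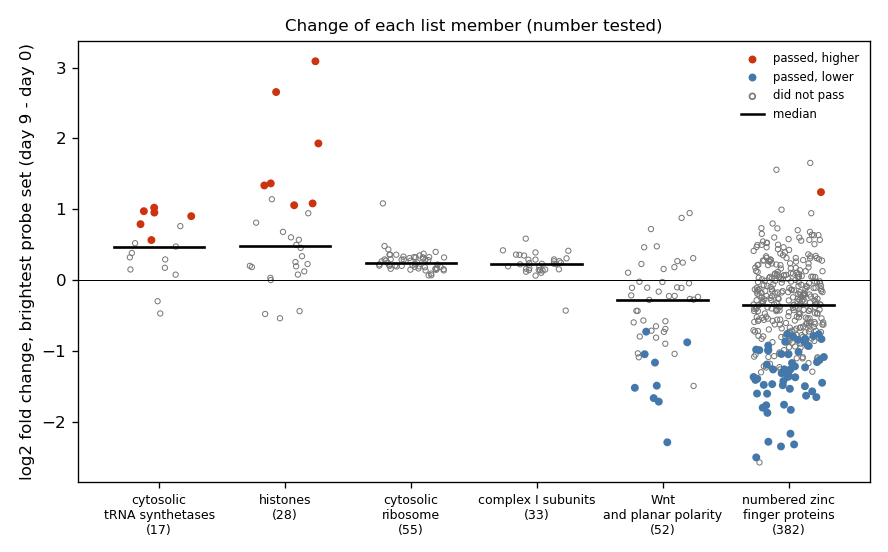
Log2 fold change (day 9 minus day 0) of the brightest probe set of each tested gene in 6 lists, each point 1 gene, filled where that probe set passed, with a line at the median. The histones reach 3.09 (H2BC21), the ribosomal proteins and complex I subunits sit in a narrow band around medians of 0.25 and 0.23 with no filled point, and most zinc finger points lie below 0 (280 of 382).

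Other functions had few passing genes, set here against 9.44% lower and 3.56% higher over all genes. Of 55 mitosis genes 4 fell and 1 rose (median log2 fold change -0.20), and of 50 DNA replication genes 2 fell and 0 rose. Of 16 cholesterol synthesis genes 1 fell and 1 rose, with a median of -0.22 and 10 below 0. The gene that rose, SQLE, passed in 1 dim probe set of 4, and its brightest gave -0.29. Of 39 proteasome genes 2 fell and 1 rose. Nuclear genes of mitochondria lay slightly above 0, and few passed. Of 33 complex I subunits 32 were above 0, with a median of 0.23 and 3 that rose. Of 33 subunits of complexes III to V 31 were above 0 (median 0.24), with 1 that rose and 2 that fell. The medians of 21 citric acid cycle enzymes and 34 NRF2 targets were 0.24 and 0.21. As a check, 3 of 7 mtDNA transcripts fell and all 7 were below 0 (median -1.08), and 13 of 31 ATF4 targets rose.

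Most genes that passed did so in part of their probe sets. Of the tested genes 5960 had 2 or more probe sets, up to 12, and 1177 of them passed. All probe sets of a gene passed in 1 direction in 78 (6.63%), of which 71 were lower and 7 higher. In 545 (46.3%) the probe sets had 1 sign without all passing, in 487 (41.4%) signs were mixed, and in 67 (5.69%) probe sets passed in both directions. Over all 5960 genes, 55.7% had probe sets of 1 sign. Among genes with exactly 2 probe sets the sign was shared in 67.6% of 3251 and in 71.0% of the 483 that passed. Both probe sets passed in 1 direction in 60 of 353 such genes that fell and in 6 of 118 that rose. The share of genes that passed grew with the number of probe sets, from 7.19% with 1 to 14.9% with 2, 21.7% with 3, 28.8% with 4 and 34.9% with 5 or more.

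**Figure D3:**
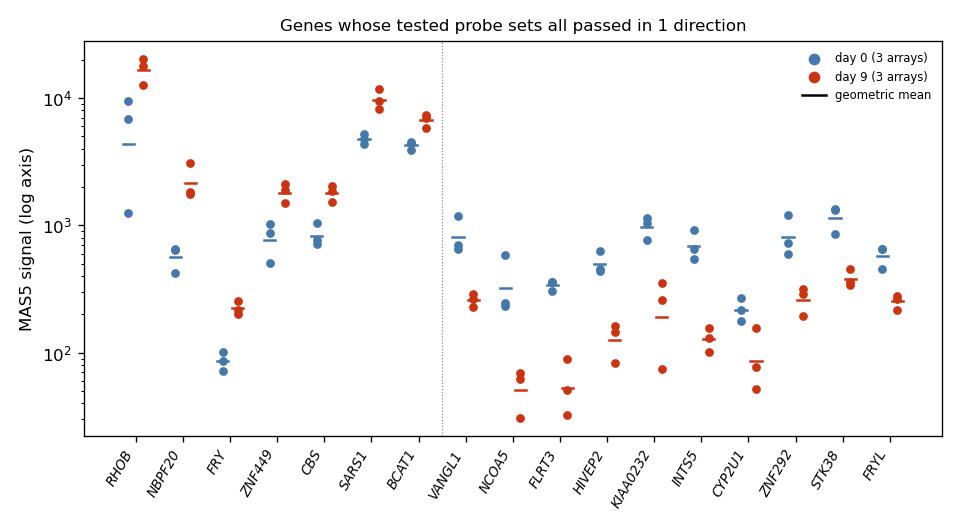
Signals of the brightest probe set, on a log axis, of the 7 genes that rose and 10 that fell in all of their probe sets with the largest mean changes, 3 day 0 arrays in blue and 3 day 9 arrays in red, with lines at the geometric means. In each of the 17 genes the 2 groups do not overlap, and RHOB has the widest spread at day 0.

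Probe sets of the same gene gave log2 fold changes that were related but often far apart. Across 5960 genes, the brightest and the next brightest probe set had a Pearson r of 0.38 and a Spearman rho of 0.43, given as a description over genes, which are no independent replicates and share arrays. In the 2614 genes where both signals were at least 500 the r was 0.48, and in the other 3346 it was 0.33. Of 516 genes whose brightest probe set passed, the next had the same sign in 389 (75.4%). It passed the same way in 135 and the opposite way in 23. In a further 396 genes the next brightest passed and the brightest did not. The gap between the highest and lowest log2 fold change of a gene had a median of 0.45 over all genes with several probe sets, 1.48 over those that rose and 1.12 over those that fell.

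**Figure D4:**
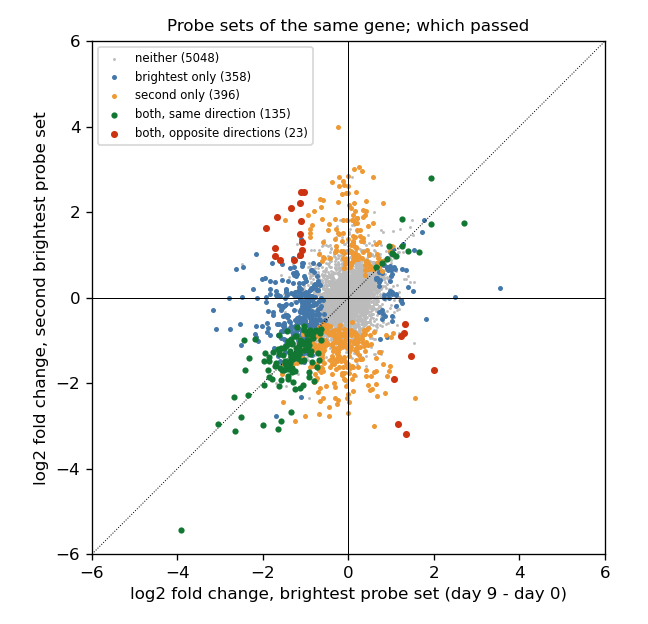
Log2 fold change of the next brightest probe set against that of the brightest for 5960 genes, each point 1 gene, coloured by which of the 2 passed, with a dotted line of equal change. Points where both passed in the same direction (135) lie in the lower left and upper right, 23 passed in opposite directions, and many lie along an axis because 1 of the 2 probe sets passed alone (358 brightest, 396 next brightest).

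Rises and falls differed in which probe set carried them. The brightest probe set of the gene passed in 730 of 1108 genes that fell (65.9%) and in 155 of 418 that rose (37.1%). In genes with several probe sets these numbers were 403 of 781 (51.6%) and 66 of 329 (20.1%). Brightest here means the highest mean signal over the 18 arrays, which depends on the affinity of the probes as well as on the amount of transcript. In the 263 genes that rose without their brightest probe set, that probe set had a median log2 fold change of 0.10, and in the 378 that fell without it, -0.16.

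The lists differed in the same respect, in counts that also hold genes with 1 probe set. The brightest probe set of such a gene is its only one, so it passed wherever the gene did. The brightest probe set passed in 6 of the 9 synthetases and 7 of the 8 histones that rose. Of these 8 histones only 2 had several probe sets. Among zinc finger genes that fell it passed in 59 of 76, among Wnt genes in 9 of 12, and among histone acetylation and methylation genes in 12 of 14. Of 55 cytosolic ribosomal proteins 7 rose (12.7%, against 3.56% of all genes). All 7 had several probe sets (5 with 1 sign, 2 with mixed signs), so the lists above are no like comparison. The brightest probe set passed in 0 of the 7, with all 55 brightest above 0 at a median of 0.25. Of the 3 complex I subunits that rose it passed in 0. RPL37A, chosen after its values were seen, had brightest signals of 39519, 63571 and 40636 at day 0 and 65335, 41971 and 51678 at day 9, with overlapping groups (log2 fold change 0.16, adjusted p = 0.833). A dim probe set of the same gene had 514, 271 and 356 at day 0 and 1620.1, 1925 and 2696 at day 9 and rose by 2.47 (adjusted p = 0.000464), with no overlap. RPS19, chosen likewise, gave 0.16 in its brightest and 1.85 in a dim one with 219, 186 and 204 at day 0 and 669.9, 598 and 975 at day 9. Ribosomal protein genes have many processed pseudogenes, so what the dim probe sets detect is uncertain.

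Of 52 SR and hnRNP splicing genes 10 rose (19.2%, against 3.56% of all genes), 3 fell (5.77%, against 9.44%) and 1 passed in both directions. The brightest probe set passed in 1 of the 10, beside 20.1% of all risen genes with several probe sets. Without day 0 replicate 2 the numbers were 8 higher and 8 lower. Of the RNAs known to hold introns or stay in the nucleus, a list written with results of these arrays known and so no independent evidence, 6 of 23 rose, 2 fell and 1 passed in both directions, with the brightest passing in 0 of the 6. Without day 0 replicate 2 this list had 5 higher and 6 lower, and without day 9 replicate 3 it had 4 of each. The lists share several genes. CCNL1, a cyclin of the splicing kinase CDK11, had signals of 81.9, 63.99 and 43.2 at day 0 and 427, 531 and 661 at day 9 in its dimmest probe set (3.12 ± 0.35, SE, adjusted p = 0.000129). The day 0 means of the dim CCNL1 probe set (63.0) and the SRSF11 one below (66.0) were under the filter. The brighter CCNL1 probe sets gave 0.96 and 0.96 and did not pass. SRSF11, an SR-related splicing factor, had 72.6, 88.6 and 36.7 at day 0 and 258, 636 and 954 at day 9 in its dimmest (3.12 ± 0.51, adjusted p = 0.00134) and 0.35 in its brightest. SRSF6, an SR protein, fell in its brightest, with 3068, 3165 and 4599 at day 0 and 1809, 1833 and 1670.2 at day 9 (-1.004 ± 0.22, adjusted p = 0.00980).

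Single dim probe sets also gave the largest changes of genes whose other probe sets did not pass. The signals of one CEP95 probe set, a gene of the centrosome, were 51.9, 60.2 and 2.47 at day 0 and 244, 257 and 508 at day 9 (log2 fold change 4.003 ± 0.84, SE, adjusted p = 0.00700). The brighter CEP95 probe set had 584, 303 and 369 at day 0 and 373, 279 and 380.0 at day 9 (-0.24), with overlapping groups. ALCAM, an adhesion molecule, rose by 3.55 in a probe set with 77.9, 4.02 and 24.1 at day 0 and 147, 253 and 323 at day 9, while its 2 brighter probe sets gave 0.05 and 0.20. RPP14, a subunit of RNase P, fell to signals near 0 in a dim probe set, with 147, 77.00 and 216 at day 0 and 62.4, 8.04 and 5.36 at day 9, and gave -0.28 in its brightest. The passing CEP95 and ALCAM probe sets started, and that of RPP14 ended, under the filter of 66.9, so the sizes of these changes are set by values near background.

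In 67 genes probe sets passed in opposite directions. The rising probe set was the dimmer at day 0 in 56 of them (83.6%). Part of this order follows from the direction itself, and over all 18 arrays the rising probe set was the dimmer in 44. Rising probe sets came from the part of the array with 7-digit identifiers in 19 genes and falling ones in 1. STK17B, a kinase of the DAPK family, had 914, 851 and 800.2 at day 0 and 358, 331 and 212 at day 9 in its brightest probe set (log2 fold change -1.54 ± 0.25, SE, adjusted p = 0.00139). Another had 55.7, 105 and 52.6 at day 0 and 743, 546 and 568 at day 9 (3.18 ± 0.51, adjusted p = 0.00109). In neither probe set did the groups overlap. Its 2 other probe sets gave 0.78 and 0.53 and did not pass.

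**Figure D5:**
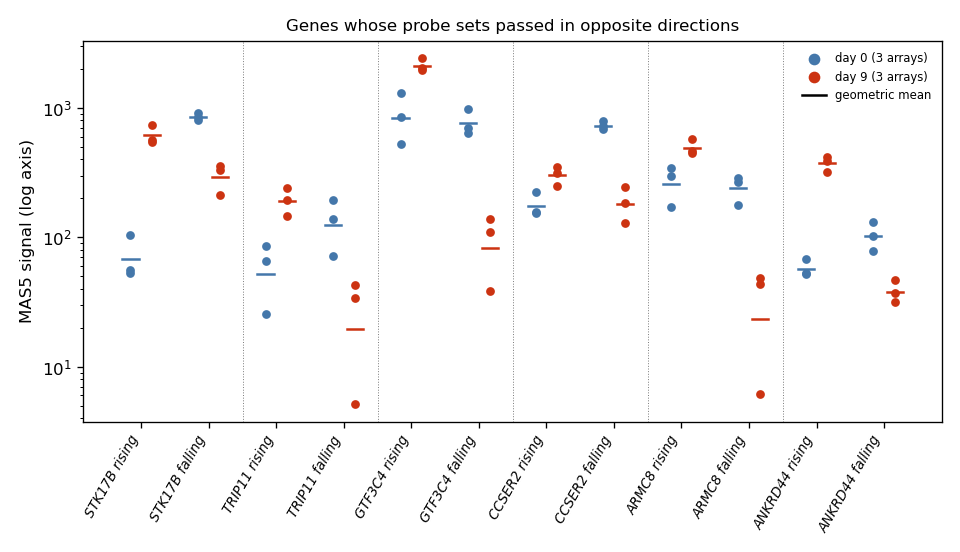
Signals of the rising and the falling probe set of 6 opposed genes, those with the widest gap over all their tested probe sets, passing or not, on 3 day 0 arrays (blue) and 3 day 9 arrays (red), on a log axis with lines at the geometric means. In STK17B the falling probe set drops from 914, 851 and 800 while the rising one climbs from 55.7, 105 and 52.6.

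Other opposed genes had a large change in 1 direction and a smaller one in the other. UBE3C, a HECT ubiquitin ligase, had 2005, 1901 and 2594 at day 0 and 757, 808 and 451 at day 9 in the falling probe set (-1.72 ± 0.23, SE, adjusted p = 0.000345) and 208, 214 and 263 at day 0 and 386, 484 and 474 at day 9 in the rising one (0.97 ± 0.23, adjusted p = 0.0158). UBE3C no longer passed without day 0 replicate 1, day 9 replicate 2 or day 9 replicate 3 (adjusted p from 0.0557 to 0.0646) in the rising probe set. GTF3C4, a subunit of the RNA polymerase III factor TFIIIC, had 702, 638 and 979 at day 0 and 138, 109 and 38.2 at day 9 in the falling probe set (-3.19 ± 0.41) and rose by 1.34 in the other. GTF3C4 no longer passed without day 0 replicate 3 or day 9 replicate 1 (adjusted p from 0.0509 to 0.0574) in the rising probe set. CCSER2 fell by 2.02 on the log2 scale in a probe set with 721, 787 and 684 at day 0 and 129, 245 and 184 at day 9 and rose by 0.78 in another. CCSER2 no longer passed without day 0 replicate 2, day 0 replicate 3, day 9 replicate 2 or day 9 replicate 3 (adjusted p from 0.0850 to 0.139) in the rising probe set.

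The class of a probe set moved with the direction of change. Probe sets with 7-digit identifiers were higher in 6.08% and lower in 3.67%. Probe sets designed to be unique were higher in 2.76% and lower in 8.12%, and those shared between transcripts (_s_at) in 1.82% and 4.23%. Probe sets built on expressed sequence tags were lower in 9.40%, against 4.77% of those built on RefSeq records. In the brightest of 4 equal classes of signal 1.38% were higher and 2.64% lower. By the length that a gene spans in the genome, the share of lower genes went from 5.49% in the shortest of 4 equal classes to 7.81%, 10.2% and 14.2% in the longest. Genes with 1 probe set showed a smaller span of 4.81% to 8.01%. The part of these features in the gene lists was not tested.

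The earlier days and the NDI1/AOX cells give the same members side by side. Days 3 and 6 share the day 0 arrays with day 9, and the day 6 values include replicate 1, the array that stood apart. The log2 fold change of VANGL1 was -0.27 at day 3, -0.35 at day 6 and -1.66 at day 9, and that of KAT6A was 0.33, -0.77 and -2.16. H2BC21 gave -0.37, 0.36 and 3.09, and SARS1 0.39, 1.14 and 1.02. In NDI1/AOX cells, which have day 0 arrays of their own, the day 9 values were -1.37 for VANGL1, -2.56 for KAT6A, 1.89 for H2BC21 and 0.29 for SARS1. Of 140 probe sets of named genes 139 had the same sign in NDI1/AOX cells, 132 of them without overlap and 98 past the threshold. The named genes were picked for their change in DN-POLG cells. The shares of all tested probe sets with the same sign or without overlap were not counted, so 139 and 132 have no background. Over all 22240 tested probe sets, 2758 passed in NDI1/AOX cells at day 9 against day 0, and 1944 in DN-POLG cells. Among the named probe sets BST2 was the exception in sign, at -0.17 against 2.67. BST2 no longer passed without day 0 replicate 2, day 0 replicate 3, day 9 replicate 2 or day 9 replicate 3 (adjusted p from 0.0569 to 0.0755). The difference between the lines passed in 0 of 22240 probe sets by limma, with 748 (3.36%) at an unadjusted p under 0.05, which does not show that they changed alike.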

How the data were processed

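RNA of 24 cultures was labelled by 3′ in vitro transcription and hybridised to 1-colour HG-U133 Plus 2.0 arrays. The authors deposited MAS5 signals, linear intensity values scaled within each array to a 2% trimmed mean near 500, with no further normalization between arrays. Such scaling leaves global shifts of RNA amount out of view. The number of arrays limits the precision. Here the deposited intensity values were put on the log2 scale and fitted with limma 3.58.1 in R 4.3.3 over the 18 HEK293 arrays in 6 groups, without a replicate block, and 6 arrays of 143B cells were not used. Tested were 22240 of 54675 probe sets, those with 1 gene symbol in the platform annotation whose log2 signal averaged 6.06 or more, which is the median over all probe sets and arrays. Of the 54675, 41091 had 1 symbol, 1801 several and 11777 none listed. P-values were two-sided and adjusted over the tested probe sets by Benjamini-Hochberg, with a threshold of 0.05.

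A gene passed where any probe set did, and its values are those of its brightest probe set unless another is named. Named genes were the largest changes among genes with all probe sets passing, with 1 probe set, with opposed probe sets or with 1 passing probe set. Genes with 1 probe set counted only where the 3 and 3 arrays did not overlap. The 3 members of each of 68 lists with the smallest p were named too. The members and lists were chosen with earlier results of these data known. Lists are described by counts and medians. By the methods each replicate is a round of cultures grown from 1 starter culture, so a day 0 and a day 9 culture can share a starter, but the labels do not say that the replicate numbers mark the rounds. Scripts were tested on simulated data. Alternatives covered normalization, filter, pseudocount, probe set choice, gene summary, arrays in the model, weights, variance, pairing and each left-out array.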

Additional observations from a re-analysis of the deposited data

How the results depend on the processing

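Of 1593 genes that passed (418 higher, 1108 lower), the number was 990 (257, 703) without the signal filter, 933 (217, 716) with the probe sets of a gene averaged, 979 (182 higher, 797 lower) with the brightest probe set only, 400 (123, 274) with the 6 arrays alone, 810 (201, 586) with the 12 DN-POLG arrays and 4284 (1562, 2410) with array weights. The cause was not tested, except that fewer probe sets or arrays enter most of these. Leaving out single arrays gave 884 to 2235 genes, 212 to 672 higher and 645 to 1457 lower. The lowest counts came without day 9 replicate 3 (884, 212 and 645), without day 9 replicate 2 253 were higher, and the highest came without day 6 replicate 1 (2235, 672 and 1457). Quantile normalization (1517), equal medians (1234), the stricter filter (1150), a pseudocount of 32 (1648), the probe sets without _s_at and _x_at (1357), the trend and robust setting (1606) and the methods' ANOVA (1556) stayed within 1.5 times. The share of lower genes was 72.6%, and 64.4% after quantile normalization. For the agreement of the probe sets of one gene, full agreement was 6.63%, and 2.51% without the filter. With the replicate block 1275 genes passed (339 higher, 891 lower), 15 of 140 named probe sets lost their call, 5 synthetases rose in place of 9 and 4 chromatin remodellers fell in place of 7. Same-numbered cultures did not deviate together (correlations -0.35, -0.22 and 0.04). Of 140 named probe sets, 59 lost their call without at least 1 of the 6 arrays and 0 turned, 97 lost it with the 6 arrays alone, 51 with the 12 DN-POLG arrays and 44 without the filter. The median SD of log2 signals was 0.40 at day 0 and 0.26 at day 9, and 0.14 and 0.21 in the NDI1/AOX arrays that share the estimate of the spread. Opposed genes have no value where 1 value is made per gene.

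Some values turned sign. Averaged over probe sets, ZBTB24 gave 0.66, DUSP16 0.41, ATP6V0A2 0.066 and SEC24A 0.092, and the median of mitochondrial dynamics -0.036. In the brightest probe set CEP95 gave -0.24 and DUSP4 0.60. Without _s_at and _x_at probe sets the median of DNA methylation genes was 0.22 and that of MAPK feedback -0.11. Quantile normalization turned the spliceosome core to -0.0029. Array weights turned interferon-stimulated genes to -0.10, and over single left-out arrays they ran from -0.056 (without day 0 replicate 3) to 0.21. Without day 9 replicate 2, RNA helicases had 0.0036 and methionine genes -0.016 (up to 0.26 over the other left-out arrays). The cause was not tested. Signals under the filter limit how large a fall can be read.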
